A study of Mus musculus with 11 samples.

Results

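The genes described here are 9 sensors of nucleic acids and their direct partners in the mouse kidney: the endosomal Toll-like receptors Tlr3, Tlr7, Tlr8, Tlr9 and Tlr13, their chaperone Unc93b1, and Cgas, Sting1 and Tbk1 of the cytosolic DNA pathway. They were chosen by symbol, with earlier results of these data known, and all 9 were found among the 25677 genes counted. RNA was measured in kidney tissue of 3 C57B6 mice (Ctr, C57BL/6J in the study's methods). The other kidneys came from 4 MRL/lpr mice left untreated (Lpr) and 4 that received DNase I by daily intraperitoneal injection from week 17 (DNase). All mice were female and 21 weeks old, and each gave 1 library. The MRL/lpr strain is mutated in Fas, a death receptor that limits lymphocyte numbers, and comes down with glomerulonephritis resembling lupus. DNase I cuts DNA outside cells, and the study gave it against neutrophil extracellular traps. Both MRL/lpr groups share the strain and the Fas mutation, so a difference from Ctr holds strain and disease together, and these cannot be told apart. Only DNase against Lpr compares mice of the same strain.

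Endosomal Toll-like receptors read nucleic acids taken up by a cell: TLR3 binds double-stranded RNA, TLR7 and its relative TLR8 single-stranded RNA, TLR9 DNA with unmethylated CpG, and TLR13 a stretch of bacterial ribosomal RNA. UNC93B1 carries all of them from the endoplasmic reticulum to endosomes. DNA in the cytosol is bound by cGAS, which makes the messenger cGAMP. STING binds cGAMP, and the kinase TBK1 then phosphorylates IRF3 to start type I interferon transcription. TLR7 is known to promote disease in lupus-prone mice, whereas loss of TLR9 aggravates it.

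Libraries held 33469858 to 38460873 counts on genes. The Lpr replicate 3 library stood apart: its expression relative to the mean of all 11 libraries fell by 0.393 on the log2 scale per doubling of gene length. Slopes in the other 10 libraries were -0.04 to 0.08. In Lpr replicate 3, 26 of 13941 genes lay below 10% of the lowest other MRL/lpr kidney, against at most 2 in any of the other 7. These genes had a mean of at least 1 CPM over the MRL/lpr kidneys without Lpr replicate 3. The other libraries were not left out of that mean in turn. Values without this library are therefore given beside the results that rest on it. Kidney markers were present in every library, with summed proximal tubule markers (6 genes) of 5108 to 11877 CPM (the usual unit of reads of a gene scaled to library size, here with edgeR's TMM factors), the lowest in Lpr replicate 3. Summed leukocyte markers (Ptprc, Coro1a and Laptm5) lay between 37.3 and 49.97 CPM in Ctr, 220 and 384 CPM in Lpr, and 172 and 307 CPM in DNase. In whole tissue, fewer cells of a type and less RNA per cell cannot be told apart.

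In GRCm38 (the mm10 of the submitters' processing notes), with the GENCODE M21 annotation, Tlr8 (chrX:167242696-167264329, minus strand) and Tlr7 (chrX:167304929-167330558, minus strand) are neighbours, 40599 bases apart. Tlr13 lies elsewhere on the same chromosome (chrX:106143204-106160493, plus strand). Tlr9 (chr9:106222598-106226883, plus strand) and Cgas (chr9:78430526-78443237, minus strand) share a chromosome. Further members are Tlr3 (chr8:45395665-45411080, minus strand), Tbk1 (chr10:121546455-121586787, minus strand) and Unc93b1 (chr19:3935186-3949340, plus strand). Exons of Tlr3 and Cgas overlap the unnamed genes Gm45542 and Gm8093 on the opposite strand, and whether counting used strand is not given in the sources used here.

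Start-site windows from 250 bases before to 50 bases after the start were held by RefSeq (GRCm38.p6) for 6 of the 9 members: Tlr3, Tlr8, Tlr9, Tlr13, Cgas and Tbk1. Both strands were searched for the interferon-stimulated response element core (GAAA and GAAA, 2 bases apart), the GAS core TTCNNNGAA and a core of the myeloid factor PU.1, GAGGAAGT. The first was found in 0 of the 6 windows and in 3.44% of 32851 windows of all genes. The GAS core, which reads alike on both strands, was found in Tlr8 alone among the 6, at position -106 from the start (8.3% of all windows). The PU.1 core was found in Tlr9 alone, at position 10 on the opposite strand (3.2% of all windows). The windows of the 3 receptors with the largest fitted differences from Ctr are shown 5′ to 3′ on the strand of the gene, with the matches in capitals. They are chrX:167264280-167264579 for Tlr8, chr9:106222348-106222647 for Tlr9 and chrX:106143025-106143324 for Tlr13, and a match is a description of letters, not a binding site.
Tlr8: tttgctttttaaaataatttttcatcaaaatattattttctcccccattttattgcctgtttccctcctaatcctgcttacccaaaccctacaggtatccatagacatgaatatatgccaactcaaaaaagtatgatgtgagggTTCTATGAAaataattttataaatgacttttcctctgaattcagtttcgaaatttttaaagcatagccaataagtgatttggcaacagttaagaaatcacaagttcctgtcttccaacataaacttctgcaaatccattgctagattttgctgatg
Tlr9: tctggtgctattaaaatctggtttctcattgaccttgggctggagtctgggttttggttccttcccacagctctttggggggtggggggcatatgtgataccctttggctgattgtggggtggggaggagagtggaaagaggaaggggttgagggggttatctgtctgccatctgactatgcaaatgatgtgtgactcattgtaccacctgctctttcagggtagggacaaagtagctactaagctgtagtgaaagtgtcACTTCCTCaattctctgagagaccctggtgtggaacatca
Tlr13: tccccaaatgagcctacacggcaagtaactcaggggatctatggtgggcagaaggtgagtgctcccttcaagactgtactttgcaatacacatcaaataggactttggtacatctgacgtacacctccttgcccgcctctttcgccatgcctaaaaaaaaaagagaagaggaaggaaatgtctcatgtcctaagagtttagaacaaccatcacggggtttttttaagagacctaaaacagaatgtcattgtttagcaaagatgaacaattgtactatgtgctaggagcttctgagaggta

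The first comparison asked how the untreated MRL/lpr kidney differed from the C57B6 kidney. Of the 9 members, 6 rose in Lpr and 0 fell at an adjusted p under 0.05 (edgeR's quasi-likelihood test with Benjamini-Hochberg adjustment over all 16074 genes tested): Tlr7, Tlr8, Tlr13, Unc93b1, Cgas and Sting1. Of all genes tested, 7.27% rose and 2.92% fell. With the study's added limit of an absolute log2 fold change above 2, 5 members were past it (all of these but Tlr7), against 4.65% of all genes. Unc93b1 (2.08), Sting1 (2.05) and Cgas (2.18) lay close to this limit. Leaving out 1 kidney could take them under it: Unc93b1 to 1.88 without Lpr replicate 2, Sting1 to 1.96 without Ctr replicate 2 and Cgas to 1.85 without Lpr replicate 1. Tlr8 and Tlr13 stayed at 4.24 and 3.22 or above with any 1 kidney left out. The members' median log2 fold change was 2.08, beside 0.03 over all genes. In 7 of the 9 members every Lpr kidney lay above every Ctr kidney, which held for 14.4% of all genes.

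Tlr8 showed the largest fitted difference of the members. It stood at 0.617, 0.192 and 0.360 CPM in the Ctr kidneys (replicates in order), at 9.43, 14.3, 3.73 and 9.87 CPM in the Lpr kidneys and at 6.62, 8.32, 10.6 and 7.15 CPM in the DNase kidneys. Every MRL/lpr kidney was above every Ctr kidney, although the Ctr values rest on 23, 6 and 12 counts. The Ctr mean was 0.390 ± 0.214 CPM (SD, n = 3) and the Lpr mean 9.34 ± 4.34 CPM (SD, n = 4). On the log2 scale Tlr8 rose by 4.56 (SE 0.59), or 23.6-fold, with an edgeR adjusted p of 0.00199. Without Lpr replicate 3 the Lpr mean was 11.2 ± 2.71 CPM (SD, n = 3).

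Tlr13, whose ligand is bacterial rather than self RNA, stood at 1.77, 0.798 and 0.839 CPM in Ctr, at 12.04, 17.2, 6.92 and 13.3 CPM in Lpr, and at 5.43, 12.7, 11.7 and 9.70 CPM in DNase. The lowest MRL/lpr kidneys were Lpr replicate 3 and DNase replicate 1, both still above all Ctr kidneys. The rise in Lpr was 3.44 on the log2 scale (SE 0.44), or 10.8-fold, with an edgeR adjusted p of 0.00191. Tlr7, the neighbour of Tlr8, had a smaller fitted difference. It stood at 2.60, 2.39 and 2.40 CPM in Ctr, at 8.69, 12.4, 4.72 and 9.05 CPM in Lpr, and at 4.83, 8.97, 8.06 and 8.69 CPM in DNase. The groups did not overlap with Ctr, and the log2 fold change in Lpr was 1.83 (SE 0.34), or 3.55-fold, with an edgeR adjusted p of 0.0105. With any 1 Ctr kidney left out this call was narrowly lost, at edgeR adjusted p values of 0.0529 to 0.0537.

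Tlr9, the receptor for CpG DNA, depended on a single library. It stood at 1.32, 0.702 and 0.869 CPM in Ctr, at 8.92, 7.64, 0.120 and 4.41 CPM in Lpr, and at 4.85, 5.57, 5.45 and 6.43 CPM in DNase. Of the 8 MRL/lpr kidneys, 7 were above every Ctr kidney, and Lpr replicate 3 was below all of them, with 4 counts where the other 7 MRL/lpr kidneys had 155 to 317. Its level there was 2.73% of the lowest other MRL/lpr kidney, and only 4 of 13941 genes had a lower such share. Over all Lpr kidneys the log2 fold change was 2.45 (SE 1.01) and did not pass the test (edgeR adjusted p = 0.198). Without Lpr replicate 3 it was 2.86 and passed (edgeR adjusted p = 0.00222), and the Lpr mean moved from 5.27 ± 3.92 CPM (SD, n = 4) to 6.99 ± 2.32 CPM (SD, n = 3). An offset for gene length left it at 2.30 (edgeR adjusted p = 0.158), and the cause of the low value was not tested.

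Tlr3, the sensor of double-stranded RNA, had the smallest fitted differences of the 5 receptors. It stood at 16.0, 12.6 and 15.8 CPM in Ctr, at 25.7, 20.1, 10.9 and 24.4 CPM in Lpr, and at 27.0, 21.9, 16.5 and 17.9 CPM in DNase. Lpr replicate 3 was below all Ctr kidneys, whereas the other 7 MRL/lpr kidneys were above them. The log2 fold change in Lpr was 0.46 (SE 0.29, edgeR adjusted p = 0.438) over 4 kidneys, and 0.67 (edgeR adjusted p = 0.0192) without Lpr replicate 3. With that library left out, 8 of the 9 members rose past the test, and calls over all genes also became more frequent, with 11% of 15855 genes higher and 6.79% lower.

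Unc93b1, on which all of these receptors depend to reach endosomes, rose in every MRL/lpr kidney. It stood at 22.3, 21.6 and 22.5 CPM in Ctr, at 107, 126, 65.4 and 74.6 CPM in Lpr, and at 61.0, 77.0, 97.2 and 73.9 CPM in DNase. The Ctr kidneys were nearly equal, and the MRL/lpr kidneys spread widely but well above them. The log2 fold change in Lpr was 2.08 (SE 0.26), or 4.23-fold, with an edgeR adjusted p of 0.00173.

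**Figure D1:**
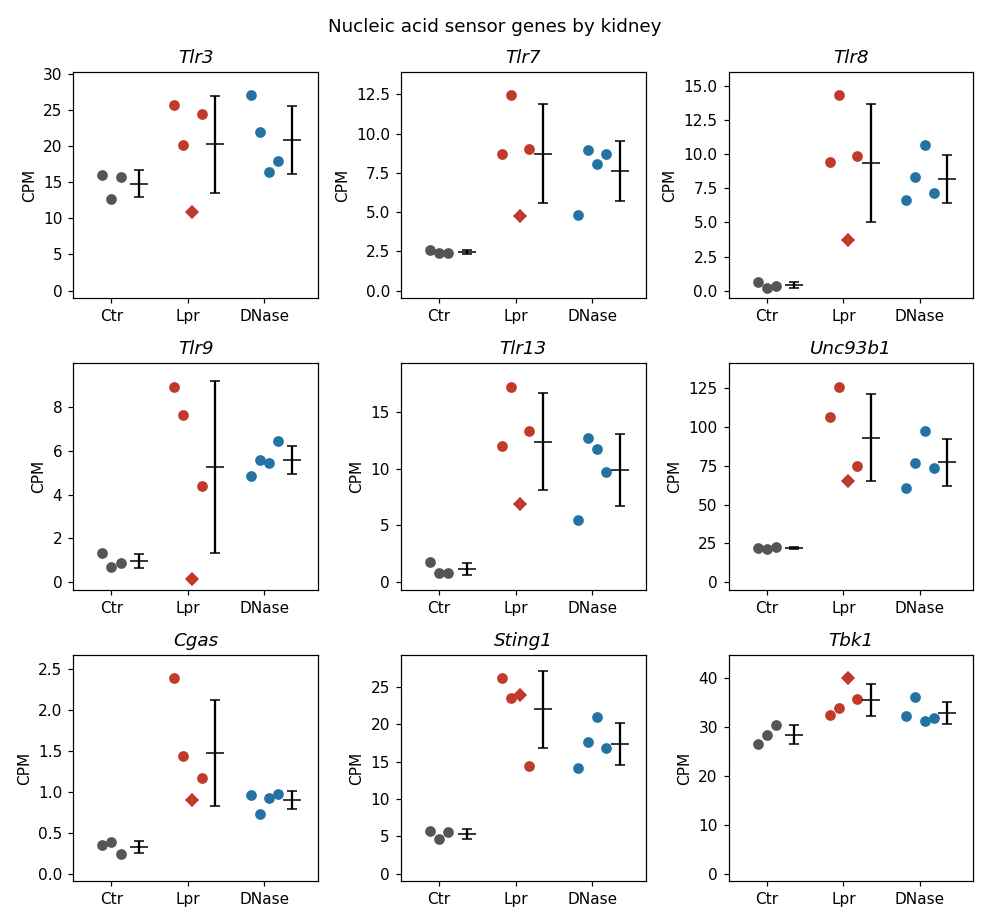
Expression of the 9 nucleic acid sensor genes in each kidney (y axis, TMM-scaled CPM; x axis, group), with points for mice, a diamond for Lpr replicate 3, and a bar with whiskers for the mean ± SD of 3 Ctr, 4 Lpr or 4 DNase kidneys. Tlr7, Tlr8, Tlr13, Unc93b1, Cgas, Sting1 and Tbk1 lay above Ctr in all 8 MRL/lpr kidneys. Tlr3 and Tlr9 lay below Ctr in Lpr replicate 3, and Tlr9 was at 0.120 CPM there and between 4.41 and 8.92 CPM in the other 7.

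In the cytosolic DNA pathway the sensor and its adaptor rose, and the kinase did not pass the test. Sting1 (chr18:35733679-35740554, minus strand) stood at 5.77, 4.597 and 5.58 CPM in Ctr, at 26.2, 23.5, 23.98 and 14.4 CPM in Lpr, and at 14.2, 17.6, 21.0 and 16.8 CPM in DNase. Unlike the receptors, its value in Lpr replicate 3 was close to those of Lpr replicates 1 and 2. Sting1 is also shorter, at 2329 bases against 3471 (Tlr9) to 5528 (Tlr7) for the receptors. The part of the gene length trend of Lpr replicate 3 in this contrast was not tested. The log2 fold change of Sting1 in Lpr was 2.05 (SE 0.25), or 4.15-fold, with an edgeR adjusted p of 0.00165.

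Cgas was scarce throughout. It stood at 0.349, 0.383 and 0.240 CPM in Ctr (13, 12 and 8 counts), at 2.39, 1.43, 0.903 and 1.17 CPM in Lpr, and at 0.965, 0.734, 0.929 and 0.978 CPM in DNase. The groups did not overlap with Ctr, Lpr replicate 1 was the highest kidney, and the 4 DNase kidneys lay close together. The log2 fold change in Lpr was 2.18 (SE 0.46, edgeR adjusted p = 0.0190), and with any 1 Ctr kidney left out it no longer passed (edgeR adjusted p from 0.0656 to 0.0948). Tbk1 stood at 26.5, 28.3 and 30.5 CPM in Ctr, at 32.5, 33.9, 40.0 and 35.8 CPM in Lpr, and at 32.2, 36.1, 31.3 and 31.9 CPM in DNase. All MRL/lpr kidneys were above all Ctr kidneys, but by little, and the log2 fold change of 0.32 (SE 0.15) did not pass in Lpr (edgeR adjusted p = 0.266).

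The second comparison, of DNase I-treated MRL/lpr kidneys with C57B6 kidneys, used the same 3 Ctr kidneys. Of the 9 members, 7 rose and 0 fell, where 13.1% of 16100 genes rose and 8.61% fell. The 7 were the 6 of the untreated mice and Tlr9. All 9 members had every DNase kidney above every Ctr kidney, which held for 18% of all genes. Past the added fold limit were 3 members, Tlr8, Tlr9 and Tlr13, against 4.56% of all genes. The members' median log2 fold change was 1.72, beside 0.0020 over all genes.

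Tlr8 again showed the largest fitted difference, with a log2 fold change of 4.36 (SE 0.36), or 20.5-fold (edgeR adjusted p = 4.25e-05). Tlr13 followed with 3.11 (SE 0.39, edgeR adjusted p = 0.000449) and Tlr9 with 2.52 (SE 0.25, edgeR adjusted p = 0.000124). The Tlr9 call was lost in a fit of all 3 groups, which includes Lpr replicate 3 (edgeR adjusted p = 0.0835). The 4 DNase kidneys lay close together for Tlr9, at 5.58 ± 0.650 CPM (SD). Unc93b1 rose by 1.81 (SE 0.15), Sting1 by 1.72 (SE 0.16), Tlr7 by 1.63 (SE 0.24) and Cgas by 1.47 (SE 0.32) on the log2 scale, with edgeR adjusted p values of 3.91e-05, 9.00e-05, 0.00101 and 0.0100. Tlr3 (0.49, SE 0.18, edgeR adjusted p = 0.0787) and Tbk1 (0.21, SE 0.09, edgeR adjusted p = 0.122) did not pass.

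**Figure D2:**
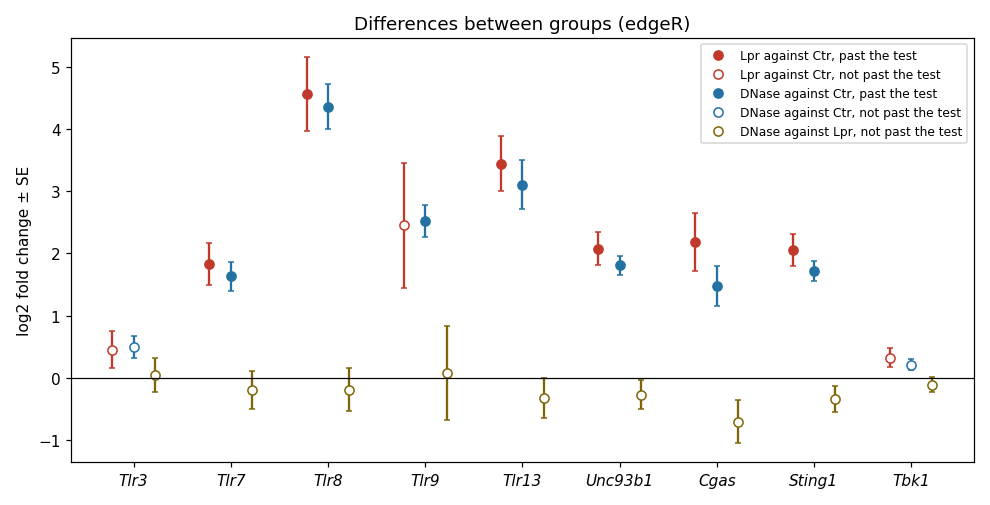
Log2 fold change of each sensor gene (y axis, edgeR fit ± SE; x axis, gene) for Lpr against Ctr, DNase against Ctr and DNase against Lpr, with filled points past an adjusted p under 0.05. Tlr8 reached 4.56 and 4.36 against Ctr, and all 9 open points of DNase against Lpr lay between -0.70 and 0.09.

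The third comparison asked whether DNase I changed the sensors within MRL/lpr mice. Of the 9 members, 0 passed the edgeR test, as did 0 of 15832 genes (0%), and the smallest adjusted p of any gene was 0.820. At an unadjusted p under 0.05 there were 886 genes (5.6%) and 0 members, and DESeq2 called 17 genes and 0 members. The ranges of DNase and Lpr overlapped for all 9 members, while 1.92% of all genes had every DNase kidney higher and 1.87% every DNase kidney lower. The fitted difference was negative for 7 members and positive for Tlr3 and Tlr9, with a median of -0.19 beside -0.02 over all genes.

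A change that misses the threshold is not shown to be absent, and the 95% intervals give what these kidneys allow. Cgas had the most negative fitted difference, -0.70 on the log2 scale (interval -1.54 to 0.14, unadjusted p = 0.0697, edgeR adjusted p = 0.854), with means of 1.47 ± 0.649 CPM in Lpr and 0.901 ± 0.114 CPM in DNase (SD, n = 4 each). For Sting1 it was -0.33 (interval -0.84 to 0.17), for Tlr13 -0.32 (-1.10 to 0.46) and for Unc93b1 -0.26 (-0.82 to 0.30). Tlr7 (-0.19, interval -0.93 to 0.55), Tlr8 (-0.18, -1.04 to 0.68) and Tlr3 (0.05, -0.62 to 0.71) lay nearer 0. Tbk1 had the narrowest interval, -0.41 to 0.20 around -0.11, and Tlr9 the widest, -1.76 to 1.93 around 0.09. Leaving out Lpr replicate 3 turned Tlr9 to -0.33 and Tlr3 to -0.17, and leaving out Lpr replicate 2 turned Tlr7 to 0.027 and Tlr8 to 0.091, so the sign of these 4 rests on single kidneys. Without Lpr replicate 1 the difference of Cgas shrank to -0.36, and without Lpr replicate 2 that of Unc93b1 to -0.092 and that of Tlr13 to -0.13. Without Lpr replicate 3 all 9 differences were negative, Cgas (-0.88) had an unadjusted p of 0.0212, and 0 members passed (the edgeR adjusted p of Cgas was 0.426).

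Levels of different genes were compared in FPKM, the authors' counts scaled by gene length and library total. In Ctr, Unc93b1 (9.37 ± 0.443 FPKM, SD, n = 3) and Tbk1 (9.06 ± 0.723 FPKM) led and overlapped, followed by Tlr3 (2.83 FPKM) and Sting1 (2.21 FPKM), which overlapped each other. Tlr7 (0.431 FPKM), Tlr13 (0.274 FPKM) and Tlr9 (0.269 FPKM) formed a chain of overlapping neighbours, and Cgas (0.0763 FPKM) and Tlr8 (0.0704 FPKM) overlapped at the bottom. Tlr8 was thus the lowest of the 9 in the control kidney by its mean, within its spread of Cgas.

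In Lpr, Unc93b1 stood alone at 40.9 ± 13.5 FPKM (SD, n = 4), above Tbk1 (11.6 FPKM) and Sting1 (9.35 FPKM), which overlapped. From Tlr3 (4.02 FPKM) through Tlr13 (3.10 FPKM), Tlr8 (1.75 FPKM), Tlr7 (1.59 FPKM) and Tlr9 (1.54 FPKM) to Cgas (0.360 FPKM), each range overlapped the next. Without Lpr replicate 3, Tlr3 still overlapped Tlr13, and Tlr8, Tlr9 and Tlr7 each other, but Tlr13 (at least 2.97 FPKM) lay above Tlr8 (at most 2.74 FPKM), and Tlr7 (at least 1.56 FPKM) and Tlr9 (at least 1.31 FPKM) above Cgas (at most 0.579 FPKM). In DNase the order was the same at the top, with Unc93b1 at 35.0 FPKM, Tbk1 at 11.2 FPKM, Sting1 at 7.74 FPKM and Tlr3 at 4.26 FPKM, none of which overlapped the next. Tlr13 (2.54 FPKM), Tlr9 (1.66 FPKM), Tlr8 (1.57 FPKM) and Tlr7 (1.43 FPKM) overlapped in a chain, and Cgas (0.228 FPKM) lay below. Tlr7 and Tlr8, apart in Ctr, overlapped in both MRL/lpr groups.

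The summed markers of each immune cell list were higher in every MRL/lpr kidney than in any Ctr kidney. Counts of markers past the test, here and in the next paragraph, stand beside these shares of all genes. In Lpr 7.27% rose and 2.92% fell, and in DNase 13.1% rose and 8.61% fell. Summed macrophage and monocyte markers (10 genes) lay between 204 and 248 CPM in Ctr, 699 and 1340 CPM in Lpr, and 571 and 1021 CPM in DNase, and 9 of the 10 rose in each MRL/lpr group. Those of T cells (7 genes) went from 4.79 to 9.85 CPM in Ctr to 43.9 to 116 CPM in Lpr and 45.9 to 77.0 CPM in DNase, and all 7 rose in each. Conventional dendritic cell markers (7 genes) summed to 13.9 to 16.8, 23.0 to 61.0 and 37.8 to 65.8 CPM in Ctr, Lpr and DNase, of which 4 rose and 0 fell in Lpr, and 5 rose and 1, Cd209a, fell in DNase. Plasmacytoid dendritic cell markers (4 genes: Siglech, Ccr9, Pacsin1 and Spib), of a cell type known for Tlr7 and Tlr9, summed to 0.766 to 2.84, 4.12 to 5.90 and 6.21 to 8.64 CPM, of which 0 rose in Lpr and 2 in DNase.

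B cell markers (7 genes) summed to 1.40 to 7.22 CPM in Ctr, 18.6 to 32.4 CPM in Lpr and 19.03 to 46.6 CPM in DNase, with 2 and 5 past the test. Plasma cell markers (5 genes) summed to 30.2 to 48.9, 173 to 752 and 306 to 1050 CPM, and neutrophil markers (8 genes) to 3.27 to 10.5, 18.2 to 39.6 and 16.1 to 28.2 CPM. Of plasma cell markers, 4 of 5 tested rose in Lpr and 3 of 4 in DNase. Only 5 of the 8 neutrophil markers could be tested, and 3 rose in each group. The markers at 0 in any library were Blk (1 library), Tnfrsf17 (2) and the neutrophil gene Ly6g (5). Podocyte markers (5 genes) summed to 744 to 836, 370 to 709 and 701 to 772 CPM, with the lowest value in Lpr replicate 3. Of these, 0 passed in Lpr (2 fell without Lpr replicate 3), and 1 rose and 1 fell in DNase. No marker of any list passed the test between DNase and Lpr. Fitted differences there were positive for all 7 B cell markers (median 1.23) and 4 of 5 plasma cell markers (median 0.34). The same held for all 5 podocyte (0.29), 5 of 6 proximal tubule (0.19) and 3 of 5 other tubule markers (0.29). They were negative for 9 of the 10 macrophage and monocyte markers (median -0.43) and 5 of 7 T cell markers (-0.21). All 6 neutrophil markers tested (-0.25) and all 3 leukocyte markers (-0.18) were negative too. Of dendritic cell markers, 4 of 6 conventional ones tested and 2 of 4 plasmacytoid ones were positive. Without Lpr replicate 3 the podocyte and proximal tubule medians were 0.09 and -0.03. The part of these cells in the sensor differences was not tested.

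Set against Ptprc, the pan-leukocyte phosphatase CD45, the sensors fell into different patterns. Ptprc itself lay between 6.83 and 11.9 CPM in Ctr, 45.7 and 109 CPM in Lpr, and 51.6 and 81.9 CPM in DNase. Tlr8 was the only member with a higher ratio in all 8 MRL/lpr kidneys than in any Ctr kidney: 0.0280 to 0.0519 Tlr8 counts per Ptprc count in Ctr, 0.0816 to 0.170 in Lpr and 0.106 to 0.130 in DNase. For Tlr13 the ratio was 0.0969 to 0.149 in Ctr, 0.151 to 0.217 in Lpr, just above it, and 0.105 to 0.167 in DNase, which overlapped.

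The ratio of Tlr7 to Ptprc was lower in MRL/lpr kidneys, at 0.219 to 0.350 in Ctr, 0.103 to 0.157 in Lpr and 0.0935 to 0.129 in DNase. For Tlr3 it went from 1.34 to 1.85 in Ctr to 0.184 to 0.464 in Lpr and 0.201 to 0.524 in DNase, and for Tbk1 from 2.23 to 4.15 to 0.311 to 0.874 and 0.382 to 0.624. Each of these 3 ratios was below Ctr in all 8 MRL/lpr kidneys. Because Ptprc itself rose, a lower ratio only shows that a gene rose less than Ptprc. The ratios of Unc93b1, Sting1 and Cgas were below Ctr in every DNase kidney, at 1.02 to 1.19 against 1.88 to 3.16 for Unc93b1, 0.233 to 0.275 against 0.485 to 0.673 for Sting1 and 0.00970 to 0.0187 against 0.0277 to 0.0561 for Cgas. In Lpr they overlapped Ctr through a single kidney each, replicate 1 for Unc93b1 (1.92) and Cgas (0.0431) and replicate 3 for Sting1 (0.524), so that without replicate 3 all Lpr kidneys were below Ctr for Sting1. The ratio of Tlr9 was also below Ctr in every DNase kidney, at 0.0665 to 0.0953 against 0.1003 to 0.111, and spread from 0.00263 in replicate 3 to 0.161 in replicate 1 of Lpr. These ratios are descriptions, without a test, and the share of all genes with such ratios is not given here.

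**Figure D3:**
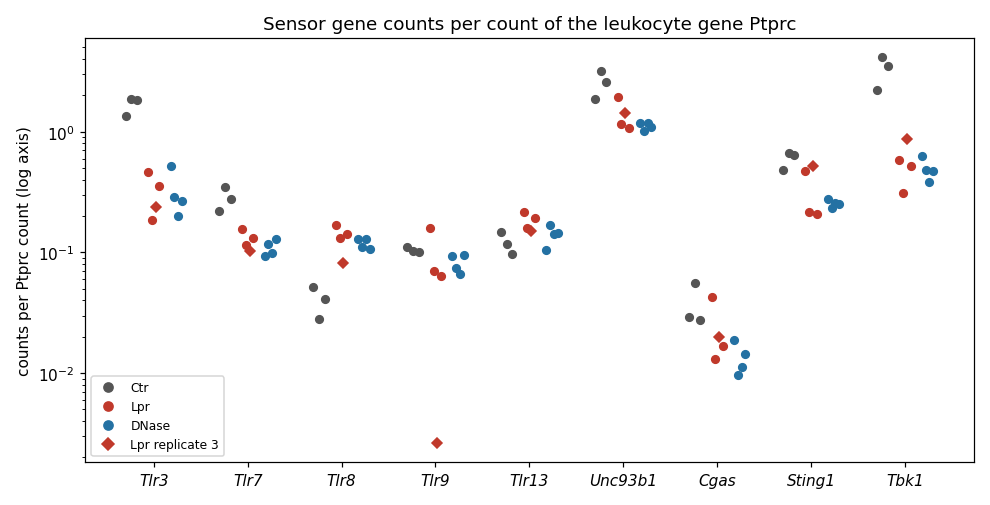
Counts of each sensor gene per count of Ptprc in the same kidney (y axis, log scale; x axis, gene), with points for 3 Ctr, 4 Lpr and 4 DNase kidneys and a diamond for Lpr replicate 3. Tlr8 lay at 0.0280 to 0.0519 in Ctr and above this in all 8 MRL/lpr kidneys, whereas Tlr7, Tlr3 and Tbk1 lay below Ctr in all of them. Ptprc itself was higher in MRL/lpr kidneys, which lowers the ratio of any gene that rose less.

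The genes around the sensors were taken by pathway. Of 18 genes that traffic or process endosomal receptors and their ligands, 7 rose and 1 fell in Lpr (median log2 fold change 0.68), and 8 rose and 3 fell in DNase (median 0.29). Over all genes, 7.27% rose and 2.92% fell in Lpr, and 13.1% rose and 8.61% fell in DNase. In Lpr the smallest p values belonged to Pld4, an endosomal exonuclease that degrades TLR9 ligands, from 6.06 to 56.7 CPM (log2 fold change 3.23, edgeR adjusted p = 0.000338), and Ctss, a cathepsin that cleaves endosomal receptors, from 20.4 to 299.8 CPM (3.88, edgeR adjusted p = 0.000560). The third was the lysosomal ribonuclease gene Rnaset2b, which fell by 1.36 (edgeR adjusted p = 0.00500), while its near-identical copy Rnaset2a rose by 1.59, and reads of such copies can be split between them. Hsp90b1 (the chaperone GP96) rose by 1.13, Tasl by 2.53 and Slc15a4, its partner in the lysosomal membrane, by 0.78 on the log2 scale (edgeR adjusted p = 0.00670, 0.0168 and 0.0142). These were named after their values were seen, and 10 of the 18 genes did not pass in Lpr. Among those 10 were the trafficking genes Cnpy3 (0.28), Lrrc59 (-0.06) and Ap3b1 (-0.18). The 3 that fell in DNase were Rnaset2b, Ctsl (-0.33) and Hmgb1 (-0.46).

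Of 18 adaptors and kinases of Toll-like receptors, 2 rose and 1 fell in Lpr (median -0.03), and 4 rose and 2 fell in DNase (median 0.10). These counts are near the shares of all genes, 7.27% higher and 2.92% lower in Lpr and 13.1% and 8.61% in DNase. Irf7, the interferon regulator downstream of TLR7 and TLR9, rose from 18.7 to 66.9 CPM in Lpr (log2 fold change 1.85, edgeR adjusted p = 0.0267). The inhibitory kinase gene Irak3 rose by 1.34 (edgeR adjusted p = 0.0469), and Chuk, the kinase IKK-alpha, fell by 0.61 (edgeR adjusted p = 0.0235). Myd88, the adaptor of TLR7, TLR8, TLR9 and TLR13, had a log2 fold change of 0.49 in Lpr that did not pass (edgeR adjusted p = 0.0993). It did pass in DNase against Ctr, with a log2 fold change of 0.35 (edgeR adjusted p = 0.0161). Of the other 7 Toll-like receptor genes, 4 rose in Lpr and 6 in DNase (medians 2.64 and 1.78), led in Lpr by Tlr1 (3.27, edgeR adjusted p = 0.00223), Tlr2 (2.64, edgeR adjusted p = 0.00313) and Tlr6 (3.72, edgeR adjusted p = 0.00473), which sense bacterial lipopeptides.

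Of 19 partners and regulators of cGAS and STING tested (1 more was not analysed here), 3 rose and 0 fell in each MRL/lpr group (medians 0.23 and 0.10), where 7.27% of all genes rose in Lpr and 13.1% in DNase, the latter near the share of this list. In Lpr these were Ifi204, a DNA-binding interferon-inducible gene (1.75, edgeR adjusted p = 0.00441), Samhd1, a deoxynucleotide hydrolase (1.27, edgeR adjusted p = 0.0284), and Ikbke, the kinase closest to TBK1 (1.09, edgeR adjusted p = 0.0310). Of 8 genes of the RIG-I-like receptors and their adaptor MAVS, which sense cytosolic RNA, 1 rose in Lpr, and 4 rose and 2 fell in DNase, where 8.61% of all genes fell. The 1 was Dhx58, encoding LGP2 (2.60, edgeR adjusted p = 0.00487), and Ifih1, encoding MDA5, did not pass in Lpr (0.88, edgeR adjusted p = 0.0778). Ifih1 did pass in DNase against Ctr (0.46, edgeR adjusted p = 0.0135). Without Lpr replicate 3, a choice made after seeing the data, in a fit where 11% of all genes rose and 6.79% fell, 4 of these 8 rose and 1 fell, against 9 and 2 of the 18 trafficking genes, 3 and 1 of the adaptors, 3 and 0 of the cGAS partners and 5 and 0 of the other receptors.

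Interferon-stimulated genes, which respond to the interferons that these sensors induce, rose in larger number. Of 18 tested (2 more were not analysed here), 14 rose and 0 fell in Lpr (median 1.81), and 15 rose and 1 fell in DNase (median 0.88). Over all genes, 7.27% rose and 2.92% fell in Lpr, and 13.1% rose and 8.61% fell in DNase. Bst2 (tetherin; 2.83, edgeR adjusted p = 0.000929) and the chemokine gene Cxcl10 (3.31, edgeR adjusted p = 0.00173) had the smallest p values in Lpr. Without Lpr replicate 3, 16 rose, where 11% of all genes did. Transcripts of interferons themselves could not be followed: of 20 type I and III interferon genes in the list, 1 was analysed here, and it did not reach the number of counts needed for a test.

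No gene of these lists passed the test between DNase and Lpr. All 18 interferon-stimulated genes had negative fitted differences (median -0.80), as did 15 of the 18 trafficking genes (median -0.30), beside -0.02 over all genes. The smallest p values of the first list belonged to Oas1a (-1.10) and Rtp4 (-1.14), both with an edgeR adjusted p of 0.820. Of the trafficking genes Lgmn (-0.52) and Ctsl (-0.72), both lysosomal proteases, had the smallest, with Ifi204 (-0.89) and Banf1 (-0.43) among the cGAS partners, Dhx58 (-0.85) and Ifih1 (-0.41) among the RIG-I-like genes, Tlr2 (-0.85) and Tlr12 (0.25) among the other receptors, and Irf7 (-0.95) and Ikbkg (0.32) among the adaptors. The members of the interferon-stimulated list share regulators, so their common sign is not a count of independent observations.

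**Figure D4:**
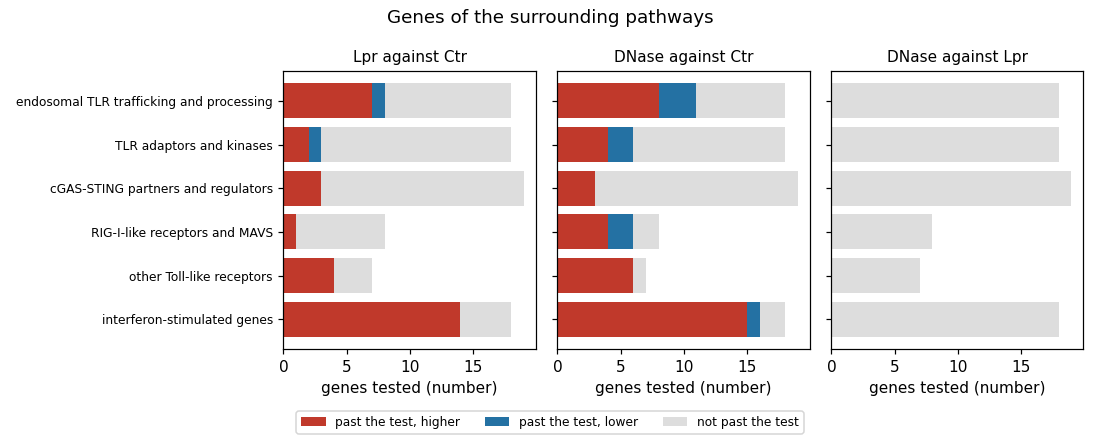
Number of genes tested in each list around the sensors (x axis; y axis, list) that passed the edgeR test as higher or lower or did not pass, for Lpr against Ctr, DNase against Ctr and DNase against Lpr. Interferon-stimulated genes had 14 and 15 of 18 higher against Ctr, where 7.27% and 13.1% of all genes were higher, and 0 genes of any list passed between DNase and Lpr.

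Among the 8 MRL/lpr kidneys, the genes whose log2 CPM followed each sensor most closely were taken by Pearson's r over 13981 genes, as a description in which the points share strain and libraries. For Unc93b1 they were Lair1 (r = 0.98), Cd86 (0.98) and Sp110 (0.97), the first 2 encoding leukocyte surface receptors, and for Tlr7 they were Rap1gds1, Cx3cr1 and Prob1 (each 0.97), of which Cx3cr1 is a chemokine receptor of monocytes and macrophages. Tlr8 was followed by AI504432, Arhgap4 and Pitpnm1 (each 0.99). Tlr13 was followed by Ppp1r15b (0.96), Cilp (0.96) and Tlr7 (0.95), itself a member. Where the closest of 13981 genes are picked over 8 kidneys, a high r can arise by chance. How high an r chance alone would give was not tested, here or for the genes in the next paragraph. Roles are given for some of the named genes only, and which cells hold the sensor RNA was not tested.

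For Cgas the nearest genes were Tspan7 (r = 0.96), Adat3 (0.96) and the interferon-stimulated Ifit1 (0.96), and for Sting1 Relt (0.98), Mcm3 (0.97) and Ncaph (0.97), the last 2 of the replication helicase and of condensin. Tlr3 was followed by App (0.99), Flt1 (0.98), the endothelial VEGF receptor, and Ccdc141 (0.98). Tbk1, highest in Lpr replicate 3, was followed by Apod (0.95), Fxyd1 (0.95) and Cpe (0.94), and without that library r was 0.91, 0.87 and 0.85. Those of Tlr9 were Sgsm2 (1.00), Gga2 (0.99) and Gak (0.99), over a range set by Lpr replicate 3, and over the other 7 kidneys r was 0.99, 0.96 and 0.78.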

How the data were processed

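RNA of 11 mouse kidneys was sequenced by the study. Per the labels and the submitters' processing notes, reads were cleaned with fastp and counted with HTSeq on mm10; aligner, annotation and strand setting are not given in the sources used here. The deposited counts are whole reads per gene without normalization, and the deposited FPKM values are, by the authors, the same counts per length and library total. Gene lengths came from their quotient. All sample columns were used (0 left out).

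Groups were compared in pairs with edgeR 4.0.16 (R 4.3.3; filterByExpr, TMM, quasi-likelihood test), with Benjamini-Hochberg adjustment over all genes tested and a threshold of 0.05. SE is the log2 fold change over the square root of F, and intervals use the residual degrees of freedom. CPM values were TMM-scaled over 11 libraries, with a prior count of 2 for log2 values. DESeq2 1.42.0 and limma 3.58.1 were alternatives, the latter on log2 FPKM with pseudocounts of 1 and 0.1 at a mean FPKM of at least 0.5. p-values measure the spread between these mice. The members and lists were chosen with earlier results of these data known. All members were named, and of each list the 3 genes with the smallest p between Lpr and Ctr and the 2 between DNase and Lpr. Outside this rule, Hsp90b1, Tasl, Slc15a4, Rnaset2a, Myd88, Cnpy3, Lrrc59, Ap3b1 and Hmgb1 were added after their values were seen. The values of 1 gene that this rule names are not reported here.

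On simulated data with 200 genes changed by 2 on the log2 scale, the fits of Lpr and Ctr found 146 and called 8 others (16074 genes), those of DNase and Ctr 185 and 9 (16100 genes), and those of DNase and Lpr 181 and 5 (15832 genes). The simulated libraries held no trend with gene length like that of Lpr replicate 3. Smaller changes, such as those fitted for the members between DNase and Lpr, were not simulated. Same-group libraries differed beyond sampling noise (chi-square per degree of freedom 17.5 to 393). Promoter windows were from RefSeq.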

Additional observations from a re-analysis of the deposited data

How the results depend on the processing

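Alternatives changed the normalization, tool, filter, threshold, libraries in the fit, robust fit, replicate block and gene length offset, and left out each library in turn. Of the members' values, 142 of 151 kept direction and side of the threshold between Lpr and Ctr, 141 of 151 between DNase and Ctr, and 155 of 160 between DNase and Lpr. The study's fold limit left 3 members between DNase and Ctr in place of 7. Leaving out 1 library gave 4 to 8 members between Lpr and Ctr (8 without Lpr replicate 3, 4 without any Ctr replicate), 7 to 8 between DNase and Ctr, and 0 between DNase and Lpr. Between DNase and Lpr, leaving out 1 library gave log2 fold changes from -0.17 to 0.18 for Tlr3 (-0.11 without DNase replicate 1), from -0.40 to 0.027 for Tlr7, from -0.45 to 0.091 for Tlr8 and from -0.33 to 0.46 for Tlr9. Between DNase and Ctr, Tlr9 lost its call in a fit of all 3 groups (edgeR adjusted p = 0.0835), Tlr3 passed with DESeq2 (adjusted p = 0.0435) and without DNase replicate 3 (edgeR adjusted p = 0.0430), and Tbk1 passed with limma on log2 FPKM (adjusted p = 0.0358 and 0.0354); the cause was not tested. Cgas could not be fitted with limma, its mean FPKM being under 0.5.

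Deviations of same-numbered mice were weakly correlated (r from -0.28 to 0.16). This does not settle whether the numbers pair mice, and the main fits used no pairing. With the replicate block 6, 6 and 0 members passed between Lpr and Ctr, DNase and Ctr, and DNase and Lpr, Cgas being lost between DNase and Ctr (edgeR adjusted p = 0.0978). Over all genes, 1639 passed between Lpr and Ctr, against 2515 with DESeq2, 2555 in a fit of 3 groups, 929 with the fold limit and 852 to 2824 without 1 library. Between DNase and Ctr 3493 passed, against 1862 with the block, 1889 in a fit of 3 groups and 967 with the fold limit. Depth limits Cgas, and Tlr8 in Ctr, which rest on few counts.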
